A study of Mus musculus with 3 samples.

Results

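Wnt signalling was followed in ES (embryonic stem) cells of the mouse, a pluripotent culture from the early embryo, through 10 genes: the secreted antagonists Dkk1, Sfrp1, Sfrp2 and Sfrp5, the TCF/LEF transcription factors Tcf7, Tcf7l1, Tcf7l2 and Lef1, and the common Wnt targets Axin2 and Sp5. The genes were taken by name, and each probe set that the platform annotation assigns to one of them alone was read. This gave 21 probe sets for 9 of the 10 genes, among 18194 genes in all. No probe set was assigned to Tcf7 in the annotation used, so Tcf7 was not analysed here. The cells had been modified so that dex, taken to mean the synthetic glucocorticoid dexamethasone, drives overexpression of Gata6, a GATA-family factor needed for primitive endoderm. The arrays represent day 0, labelled as the control, day 1 and day 2 of Gata6 overexpression, with 1 array per day. The labels leave unstated the ES cell line, the number of clones, the dose of dex and whether the day 0 cells carried the modification.

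In the canonical Wnt pathway a Wnt ligand binds a Frizzled receptor and an Lrp coreceptor, which stops the destruction complex of Axin, Apc and Gsk3 from marking beta-catenin for degradation. Beta-catenin then enters the nucleus and binds TCF/LEF factors on target genes. Without it these factors act mostly as repressors, and Tcf7l1 (also called Tcf3) is known in mouse ES cells for holding down pluripotency genes. Secreted antagonists work outside the cell: Dkk1 blocks the Lrp coreceptor, and Sfrp proteins bind Wnt ligands.

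The values are MAS5 signals, a linear brightness per probe set, scaled to a common trimmed mean. Median signals stood at 84.2, 81.9 and 86.4 for days 0, 1 and 2. Before ratios were taken, signals below 54.0 were raised to that value, called the floor, which is where 40% of the scaled signals lie lower. As background, 78 probe sets of odorant and pheromone receptor genes, which should be silent in ES cells, had a 95th percentile of 70.2. With no replicates there is no test between days, and day, culture and array cannot be told apart. Any effect of dex itself cannot be told apart from that of Gata6 either. The only error is the SD of a log2 ratio between probe sets of one gene. It came to 0.46 below a signal of 200, 0.32 between 200 and 1000, 0.19 between 1000 and 5000 and 0.13 beyond that. Those signals are of the dimmer probe set of a pair, and both probe sets lay over the floor on both arrays. The 16104 pairs count a gene up to 3 times, once for each comparison. The SD is printed after ±, by the mean signal of the probe set named over the 2 arrays compared. It does not hold the spread between cultures. A fold against a signal at the floor or under the receptor background is written as at least N-fold. A gene was called higher or lower at a 2-fold or wider difference with at least the brighter signal over the floor, and it was represented by its brightest probe set.

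The overexpressed gene was checked first. The brightest Gata6 probe set read 109.6 on day 0, 5577 on day 1 and 6068 on day 2. Of the 10 pluripotency markers listed, 9 were lower on day 1 than on day 0, and 9 on day 2, and 0 were higher. Their signals summed to 131974 on day 0, 57772 on day 1 and 47876 on day 2. The marker not called lower, Dppa5a, read 40743, 37077 and 36722, so it made up most of the sums on day 1 and day 2. All 11 primitive endoderm markers, Gata6 among them, were higher on both days, with sums of 4784, 94739 and 147266. Of 10 fibroblast markers, which would show feeder cells, Col1a1, Col3a1, Postn, Dcn and Lum were at the floor on each array, and the sum read 1313, 1287 and 974. Of the others, Fbln1 read 638, 850 and 534, Thy1 was 5.58-fold lower on day 1 and at least 7.79-fold lower on day 2, and Twist1 was at least 2.08-fold higher on day 2. The mesoderm sum, over the 7 of 8 markers with a probe set, read 1191, 1147 and 1238, of which Eomes alone made up 555, 716 and 611. Within it Foxf1 was at least 2.84-fold higher on day 2, though its other measured probe set had a log2 ratio of -0.97. The neural sum, over 5 of 6 markers, read 1051, 393 and 305, of which Tubb3 alone made up 826, 163 and 112. The pluripotency and primitive endoderm signals moved with the same days as the Wnt genes, and their part in the results below was not tested. In bulk RNA, fewer cells of a type and less RNA per cell cannot be told apart.

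Promoters are shown for 3 genes that span the range of outcomes: Dkk1, which had the highest ratios, Tcf7l1, the factor with a lower signal on both days, and Sp5, a known Wnt target that stayed at the floor. The RefSeq promoter table of build GRCm38.p6 gives 250 bases before to 50 bases after a start site and matched 9 of the 10 genes. These are not the 9 genes with a probe set: Sfrp1 had no window, and Tcf7, which was not analysed for expression, had 2. Capitals mark matches to CTTTGAT or CTTTGTT, the core of a TCF/LEF site, and to AGATAA or TGATAA, the core of a GATA site, on either strand, and in Sp5 an AGATAA match overlaps a reversed CTTTGTT match.
Dkk1 (chr19:30549447-30549746, minus strand): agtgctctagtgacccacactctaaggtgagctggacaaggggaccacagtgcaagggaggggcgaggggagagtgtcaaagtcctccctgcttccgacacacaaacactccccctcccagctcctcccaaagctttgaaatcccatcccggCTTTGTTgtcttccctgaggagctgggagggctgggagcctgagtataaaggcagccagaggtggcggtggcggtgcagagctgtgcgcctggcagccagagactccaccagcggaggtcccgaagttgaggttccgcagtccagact
Tcf7l1 (chr6:72788996-72789295, minus strand): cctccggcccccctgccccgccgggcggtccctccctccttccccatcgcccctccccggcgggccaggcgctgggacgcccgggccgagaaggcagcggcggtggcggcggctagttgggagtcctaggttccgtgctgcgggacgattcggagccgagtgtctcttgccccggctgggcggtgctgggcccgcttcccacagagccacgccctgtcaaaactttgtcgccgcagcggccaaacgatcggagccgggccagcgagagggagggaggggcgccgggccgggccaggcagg
Sp5 (chr2:70474673-70474972, plus strand): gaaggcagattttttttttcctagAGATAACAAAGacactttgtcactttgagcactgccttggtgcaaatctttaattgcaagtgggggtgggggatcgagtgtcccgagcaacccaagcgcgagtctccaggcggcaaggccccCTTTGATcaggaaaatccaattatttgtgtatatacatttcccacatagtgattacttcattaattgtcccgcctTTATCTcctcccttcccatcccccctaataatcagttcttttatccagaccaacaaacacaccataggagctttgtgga
The Dkk1 window held 1 CTTTGTT match, which begins 98 bases before the start site, and no match to either GATA core. The Sp5 window held a CTTTGAT match that begins 104 bases before the start site, 1 CTTTGTT match and 2 AGATAA matches. The Tcf7l1 window held none of the 4 motifs. Of all 32851 promoter windows in the table, 3.73% held CTTTGAT, 5.85% CTTTGTT, 11.2% AGATAA and 9.05% TGATAA. Counted by gene over all their windows, 3 of the 9 genes held a TCF/LEF core (Dkk1, Sp5 and a downstream start of Tcf7l2), beside 10.6% of all 27025 genes in the table. A GATA core was held by 4 of the 9 (Sp5, Sfrp5, and downstream starts of Lef1 and Tcf7l2), beside 21.0% of all genes. A match describes the letters in the window and is not evidence of binding.

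Among the secreted antagonists, Dkk1 was far brighter on both days of Gata6 overexpression and Sfrp1 dimmer on both. Sfrp2 was called lower on day 2 alone, and Sfrp5 was within 2-fold in each comparison. The signal of Dkk1, whose protein binds the Lrp coreceptor, reached 79.6 on day 0, 5819.8 on day 1 and 5048 on day 2. The day 0 value is barely above the receptor background, whereas both later values are among the bright signals of the array. The log2 ratio was 6.19 for day 1 over day 0 and 5.99 for day 2 over day 0, which is 73.1-fold and 63.4-fold. Its SD is 0.19 by the mean signal, but 0.46 by the dim day 0 signal on which both ratios rest. Day 2 over day 1 was -0.21 ± 0.13, within 2-fold. The second Dkk1 probe set read 5.80, 470 and 625 on the 3 days, so it was at the floor on day 0 and at least 8.69-fold higher on day 1 and at least 11.6-fold higher on day 2. Both probe sets thus place the difference between day 0 and day 1, and their day 2 over day 1 ratios have opposite signs.

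Sfrp1, a soluble protein with a Frizzled-like domain that binds Wnt, had 5 probe sets. The brightest read 756 on day 0, 310.1 on day 1 and 281 on day 2. Another read 608, 214 and 97.2, and a similar one read 613, 179 and 102. The remaining ones, one of them an unspecific probe set, read 309, 120.5 and 50.2, and 227, 79.7 and 104. All 5 were highest on day 0, and each was at least 2-fold lower on day 1 and on day 2. On day 1 over day 0 their log2 ratios lay between -1.78 and -1.29, with -1.29 ± 0.32 for the brightest. On day 2 over day 0 they spread more widely, between -2.64 and -1.12, and the brightest, at -1.43 ± 0.32, gave a smaller difference than 3 of the others.

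Sfrp2, another Wnt-binding member of the family, had a single probe set that read 190.4 on day 0, 114 on day 1 and 88.1 on day 2. It was 1.67-fold lower on day 1 and 2.16-fold lower on day 2, with log2 ratios of -0.74 ± 0.46 and -1.11 ± 0.46. The day 2 value is just past the 2-fold line and not far above the receptor background. It was no longer called with the floor at the 60th percentile, at a log2 ratio of -0.38.

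Sfrp5, which is expressed in visceral endoderm of the mouse embryo, read 206 on day 0, 113 on day 1 and 188 on day 2. Its second probe set read 129, 16.8 and 105. Both probe sets were lowest on day 1 and close to their day 0 signal on day 2. The brighter one had log2 ratios of -0.86 ± 0.46 for day 1 over day 0 and -0.13 ± 0.46 for day 2 over day 0, neither of them past 2-fold. The dimmer one was at the floor on day 1 and at least 2.38-fold lower there.

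**Figure D1:**
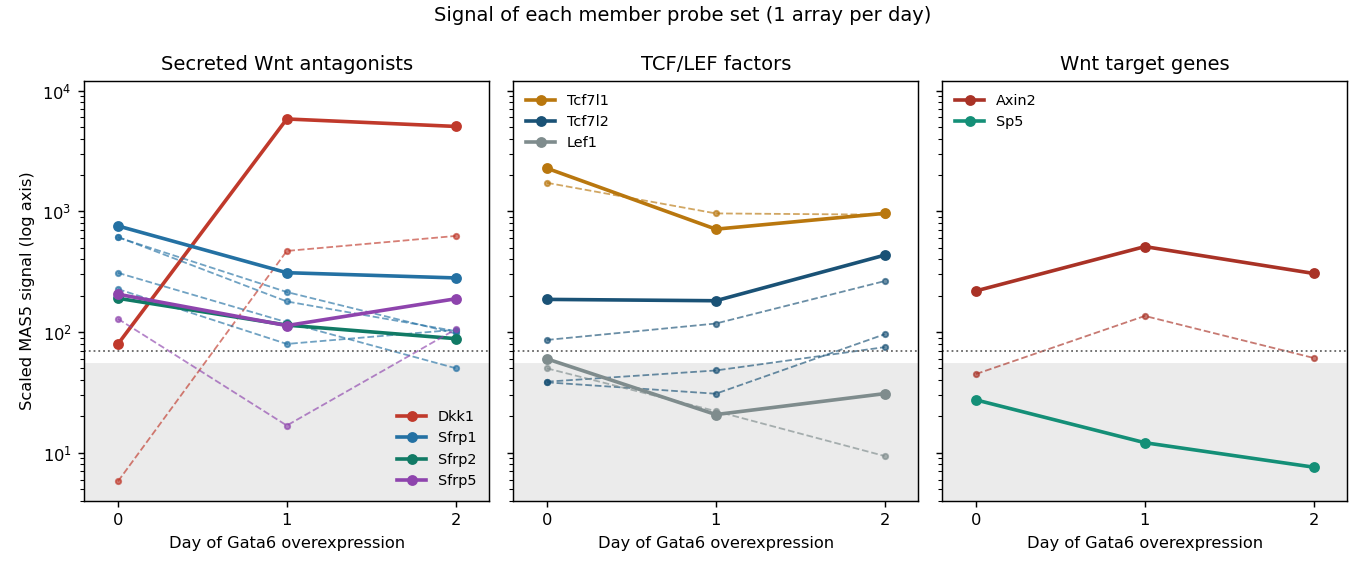
Scaled MAS5 signal (log axis) of the 21 probe sets on day 0, day 1 and day 2, 1 array each. Thick lines are the probe set that represents a gene, dashed lines the others, grey marks signals under the floor of 54.0 and the dotted line the receptor background of 70.2. Dkk1 climbs from near background to above 5000, all 5 Sfrp1 lines are highest on day 0, and Lef1 and Sp5 lie at or below the dotted line.

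Among the TCF/LEF factors, Tcf7l1 and Tcf7l2 differed in opposite directions, and Lef1 was not detected above background. Tcf7l1, the factor best known as a repressor in ES cells, read 2271 on day 0, 711 on day 1 and 962 on day 2. Its second probe set read 1722, 961 and 938. Both were highest on day 0. For the brighter one the log2 ratio was -1.68 ± 0.19 on day 1 over day 0, 3.19-fold lower, and -1.24 ± 0.19 on day 2 over day 0, 2.36-fold lower. The second probe set was 1.79-fold and 1.84-fold lower, short of 2-fold on both days. Day 2 over day 1 was 0.44 ± 0.32 on the first and -0.03 on the second.

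Tcf7l2, also called Tcf4, a TCF factor that can activate targets with beta-catenin, read 186 on day 0, 182 on day 1 and 433 on day 2. An unspecific probe set read 86.0, 118 and 264. A pair of dim probe sets lay under the floor on day 0 and day 1 and read 95.8 and 74.96 on day 2. All 4 were highest on day 2. The brightest had a log2 ratio of -0.04 ± 0.46 on day 1 over day 0, of 1.22 ± 0.32 on day 2 over day 0 and of 1.25 ± 0.32 on day 2 over day 1, the last being 2.39-fold. The unspecific one was 3.07-fold higher on day 2 than on day 0, and the dim pair at least 1.77-fold and at least 1.39-fold higher.

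Lef1, the TCF/LEF factor that in other cells often rises as a Wnt target itself, read 59.9 on day 0, 20.7 on day 1 and 30.9 on day 2. Its other probe set read 49.99, 22.1 and 9.39. None of these signals was above the receptor background, so a difference between days was not measurable for Lef1. The lower floor of the 25th percentile alone called it lower on day 1, at a log2 ratio of -1.20.

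The Wnt targets gave a brief difference in Axin2 and no usable signal for Sp5. Axin2, a scaffold of the destruction complex that is itself switched on by Wnt signalling, read 219 on day 0, 510.2 on day 1 and 306 on day 2. Its second probe set read 44.9, 136 and 61.0. Both peaked on day 1. The brighter one was 2.33-fold higher on day 1 than on day 0, with a log2 ratio of 1.22 ± 0.32, and 1.39-fold higher on day 2, at 0.48 ± 0.32. The dimmer one was at least 2.51-fold higher on day 1 than on day 0 and at least 2.23-fold lower on day 2 than on day 1. The brighter one was 1.67-fold lower in that last comparison, at -0.74 ± 0.32. Sp5, a zinc finger factor and direct Wnt target, had 1 probe set, which read 27.4, 12.1 and 7.60 and was under the floor on each array. Whether Sp5 differed between days could therefore not be read, and its promoter matches above have no expression value beside them.

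**Figure D2:**
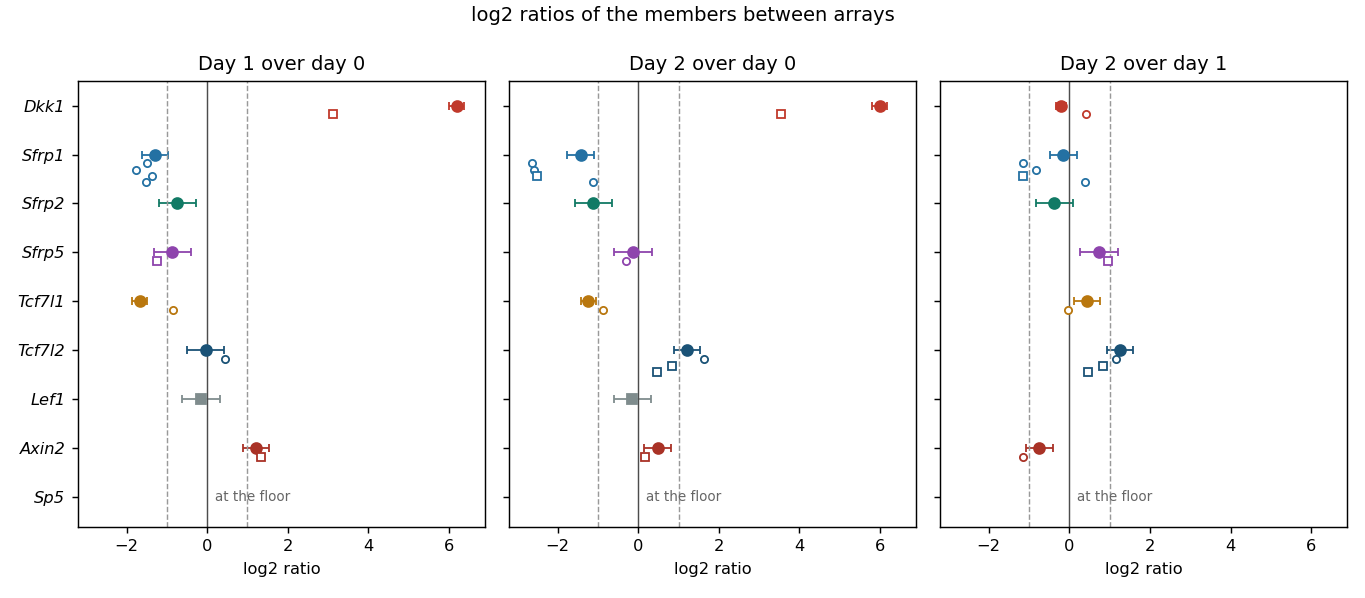
log2 ratios of the probe sets for day 1 over day 0, day 2 over day 0 and day 2 over day 1, with dashed lines at 2-fold. Filled symbols are the probe set that represents a gene, with its SD between probe sets by the mean signal of the 2 arrays, open symbols the others, and squares are lower bounds with an array at the floor. Dkk1 stands at 6.19 and 5.99 over day 0, Tcf7l2 passes the line on day 2 alone and Axin2 on day 1 alone.

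Counted together, 2 of the 7 genes above the receptor background were higher on day 1 over day 0 (Dkk1 and Axin2), where 6.02% of all genes compared were higher. Another 2 were lower (Sfrp1 and Tcf7l1), where 6.56% of all genes were lower. The shares of all genes here are over genes above the floor, which lies below the receptor background. With that background as the floor, all genes gave 734 higher and 760 lower of 12448 on day 1. They gave 1422 and 1256 of 12729 on day 2 over day 0, and 630 and 420 of 12342 on day 2 over day 1. On day 1 over day 0 the median log2 ratio of the 7 members was -0.74, or -0.44 with Lef1, which passes the floor. The median over all 13603 genes compared was -0.04. On day 2 over day 0, 2 of the 7 members were higher (Dkk1 and Tcf7l2), beside 11.0% of all genes, and 3 were lower (Sfrp1, Sfrp2 and Tcf7l1), beside 10.1%. Their median was -0.13, or -0.14 with Lef1, beside -0.05 over 13866 genes. Day 1 and day 2 share the day 0 array, so these counts are not independent. On day 2 over day 1, 1 of 7 was higher (Tcf7l2), beside 5.59% of all genes, and 0 were lower, beside 3.68%, each by its brightest probe set. Among the other probe sets, 2 of Sfrp1 (log2 ratios -1.14 and -1.16) and 1 of Axin2 (-1.16) were past 2-fold lower there. Among the alternatives that keep the 2-fold line, the mean over its probe sets, at 0.93, was the one in which Tcf7l2 fell short. At a 3-fold line on the brightest probe sets, Dkk1 was the single higher gene on both days. Tcf7l1 was the single lower one on day 1, and none was lower on day 2. Over all genes that line called 346 higher and 286 lower of 13603 on day 1, and 720 and 540 of 13866 on day 2. Other probe sets of the members did pass 3-fold. On day 2 over day 0, those of Sfrp1 were 6.25-fold, 6.02-fold and at least 5.72-fold lower, with the last at 2.17-fold. The unspecific one of Tcf7l2 was 3.07-fold higher. On day 1 over day 0, 1 of Sfrp1 was 3.42-fold lower.

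The genes whose pattern lay nearest to Dkk1, by Euclidean distance between the log2 ratios of day 1 and day 2 over day 0 among 4202 genes with several probe sets of one sign, were Amot (distance 0.51), Foxq1 (0.56) and Gata6 (0.56). Amot, an adaptor of tight junctions and the Hippo pathway, read 80.3, 5027 and 6981 on the 3 days, and the forkhead factor Foxq1 read 50.6, 2996 and 4479. Amot and Foxq1 were brighter on day 2 than on day 1, whereas the brighter Dkk1 probe set was not. Nearest to Sfrp1, the gene with the lowest day 2 ratio, were Plaat3 (0.04), Cbx7 (0.04) and Tiam1 (0.04). Cbx7, a Polycomb subunit, read 2097, 858 and 799.8, and Tiam1, an activator of Rac, read 657, 264 and 249. The likeness rests on 3 arrays and is a description.

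The rest of the pathway was read through 7 lists of 115 other Wnt genes, of which 112 had a probe set and 92 were above the floor on at least 1 array. On day 1 over day 0, 6 of 84 were higher (7.14%, beside 6.02% of all genes) and 11 lower (13.1%, beside 6.56%), and their log2 ratios had a median of -0.03. On day 2 over day 0, 16 of 90 were higher (17.8%, beside 11.0% of all genes) and 13 lower (14.4%, beside 10.1%), and the median was -0.04. When probe sets of a gene were averaged, the day 2 counts were 7 higher and 10 lower. Over all genes that setting called 1178 higher and 1097 lower of 13889 compared, so the larger share of higher list genes did not hold under it. On day 2 over day 1, 10 of 88 were higher (11.4%, beside 5.59% of all genes) and 5 lower (5.68%, beside 3.68%). With probe sets averaged, 3 were higher and 2 lower, beside 542 and 348 of 13529 over all genes. The larger share of higher list genes did not hold there either.

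Of 19 Wnt ligands, 12 were measured, and Wnt1, Wnt2, Wnt3, Wnt5b, Wnt8a, Wnt10a and Wnt10b were at the floor on each day. On day 2 over day 0, 3 of 11 were higher and 1 lower. Of all genes compared, 11.0% were higher and 10.1% lower there, the shares beside which each list below is read. Wnt4 read 23.9, 161 and 363 on the 3 days, at least 6.73-fold higher on day 2, though its other measured probe set had a log2 ratio of -0.06. Wnt9a was at least 3.47-fold higher (0.12 on its other measured probe set), and Wnt11 2.93-fold. In the secretion and R-spondin list, 1 of 9 was higher and 1 lower on day 2. Wls, the carrier that brings Wnt proteins to the cell surface, read 156, 209 and 900.4 and was 5.77-fold higher on day 2, with log2 ratios from 2.01 to 3.53 over 3 probe sets. Rspo1, a secreted enhancer of Wnt signalling, was at least 2.15-fold lower. Znrf3, a ligase that removes Frizzled receptors, was 1.57-fold higher and not called, with a log2 ratio of -0.21 on its other probe set.

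Among receptors and coreceptors, 3 of 14 were higher and 3 lower on day 2 over day 0, beside 11.0% and 10.1% of all genes. Fzd5 read 1532, 556 and 419, 3.66-fold lower on day 2, and Fzd10 was at least 2.90-fold lower. Fzd1 was at least 2.70-fold higher, with 0.34 as the log2 ratio of its other measured probe set. Of the other antagonists, 1 of 10 was higher and 1 lower. Notum, an enzyme that inactivates Wnt by removing its lipid and is itself a Wnt target, read 860, 91.3 and 149.7, which is 9.42-fold lower on day 1 and 5.74-fold lower on day 2. Frzb, a relative of the Sfrp genes, read 18.7, 23.1 and 193 and was at least 3.57-fold higher on day 2 (log2 ratio 0.34 on its other measured probe set). Shisa2, which holds Frizzled inside the cell, was not called, being at least 1.46-fold lower on day 2, when it lay under the floor.

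For beta-catenin and the destruction complex, 2 of 16 genes were higher and 0 lower on day 2 over day 0, beside 11.0% and 10.1% of all genes. Tnks, a tankyrase that marks Axin for degradation, was 3.21-fold higher, but its 4 probe sets spread between -0.69 and 1.68 on the log2 scale. The kinase gene Gsk3b was 2.10-fold higher (0.35 to 1.16 over 6 probe sets), and Csnk1a1, another kinase of the complex, stood at -0.64. Ctnnb1, which encodes beta-catenin and is named here as the hub of the pathway, read 22651 on day 0, 19359.5 on day 1 and 18184 on day 2, within 2-fold. Among nuclear partners, 1 of 16 was higher and 3 lower. The corepressor Ctbp2 read 12482, 4395 and 2888, 4.32-fold lower on day 2, and the Groucho-related genes Tle5 and Tle4 were 2.46-fold and 2.39-fold lower.

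Other common Wnt targets differed in both directions, with 5 of 14 higher and 4 lower on day 2 over day 0, beside 11.0% and 10.1% of all genes. Nodal, a ligand of the TGF-beta family, read 2312, 226 and 236, 9.78-fold lower on day 2. Jun, a subunit of the AP-1 factor, read 73.5, 187 and 677, 9.21-fold higher (log2 ratio 1.60 on its other probe set, beside 3.20), and the receptor gene Ephb3 read 472, 2012 and 2398, 5.08-fold higher. Dkk1, at 5.99 on day 2 over day 0, had a higher log2 ratio than any gene of the 7 lists.

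**Figure D3:**
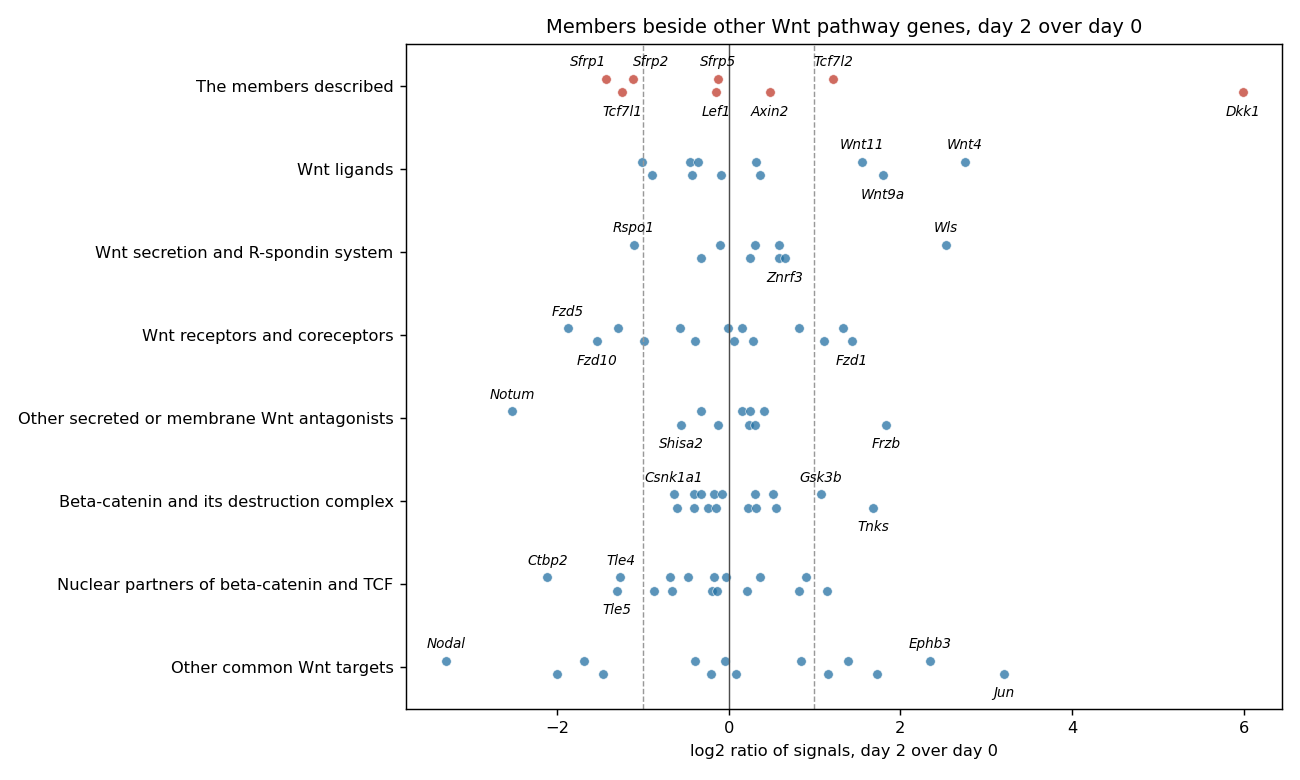
log2 ratio of signals, day 2 over day 0, for the members (red) and the genes of 7 Wnt pathway lists (blue) above the floor on at least 1 of the 2 arrays, each gene by its brightest probe set, with dashed lines at 2-fold. Points are staggered up and down for legibility. Dkk1 lies at 5.99 on the far right, the highest pathway list gene is Jun at 3.20 and the lowest is Nodal at -3.29.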

How the data were processed

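Total RNA of 3 mouse ES cell samples was labelled with an Affymetrix one-cycle kit, per the labels' protocols. The authors deposited an intensity on a linear scale for each probe set, made with MAS5 per the submitters' processing notes, which name no version. Their 2% trimmed means were 497, 497 and 497, so they had been scaled alike. Of 45101 probe sets, 64 were controls, 34958 had 1 gene, 932 several and 9147 none. Symbols were updated by gene identifier for 34754 of the 34958 through a RefSeq table of GRCm38.p6, used for names only.

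Each array was rescaled to the mean of these trimmed means, floored at 54.0 and put on the log2 scale with Python 3.11.15 and pandas 2.3.3. The fold rule was run on simulated arrays with known differences, as a check of the code alone. The outcome of that check is not given here. It is no evidence for calls close to the fold line or at dim signals. Beside the 10 genes, the text names Gata6, the 3 widest day 2 differences of each pathway list and the 3 nearest patterns, and, chosen after their values were seen, Ctnnb1, Nkd1, Ccnd1, Myc, Ascl2, Ror1 and a few markers. The members, lists and rules were chosen with earlier results of these data known. There are no replicates, so no test was run, and precision is limited by the number of arrays. In all 9 alternatives were tried.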

Additional observations from a re-analysis of the deposited data

How the results depend on the processing

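No paired analysis was possible because each day has 1 array. Across 8 alternatives that keep the 2-fold line, 202 of 216 log2 ratios of the members moved by less than the SD between probe sets. The other 14 moved further, and 0 of the called ratios changed sign. Part of the 202 could not move. Leaving out unspecific probe sets changed no ratio, because none of them represents a member. The lower alternative floor and the receptor floor changed ratios of Lef1 or Sp5 alone, as the other members' representing probe sets lay above both floors each day. Those settings are therefore no test of the calls listed next. Dkk1 ranged from 4.66 to 6.21 on day 1 and from 4.76 to 6.01 on day 2 over day 0. The 4 calls on day 1 (Dkk1, Axin2, Sfrp1, Tcf7l1) held in all 8, as did those of Dkk1, Tcf7l2, Sfrp1 and Tcf7l1 on day 2. Sfrp2 lost its day 2 call under the 60th percentile floor and under a pseudocount of 50. Sfrp5 was called lower on day 1 as a mean over probe sets (-1.06). With a 3-fold threshold on the brightest probe sets, members called were 1 higher and 1 lower on day 1, and 1 and 0 on day 2. All genes gave 346 and 286 of 13603 on day 1, and 720 and 540 of 13866 on day 2. On day 2 over day 1 that threshold gave 0 members higher, and means over probe sets at 2-fold also gave 0. All genes gave 227 higher of 13469 and 542 higher of 13529 there.

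Pathway list counts moved more. With the floor at the 25th percentile they were 11 higher and 18 lower on day 1, 20 lower on day 2, and 17 higher on day 2 over day 1. With the 60th percentile the list counts were 1 and 7 on day 1, 9 higher on day 2, and 4 higher and 1 lower on day 2 over day 1. All genes gave 540 and 517 of 9972 on day 1, and 1119 higher of 10200 on day 2. On day 2 over day 1 they gave 438 higher and 272 lower of 9828. Means over probe sets gave 2 list genes higher on day 1, 7 higher and 10 lower on day 2, and 3 higher and 2 lower on day 2 over day 1. All genes gave 630 higher of 13644 on day 1, and 1178 higher and 1097 lower of 13889 on day 2. On day 2 over day 1 they gave 542 higher and 348 lower of 13529. A 3-fold threshold gave 2 list genes higher and 3 lower on day 1, 8 and 6 on day 2, and 3 and 1 on day 2 over day 1. All genes gave 346 and 286 of 13603, 720 and 540 of 13866, and 227 and 112 of 13469. The receptor floor and the pseudocount each gave 3 list genes lower on day 2 over day 1, beside 420 of 12342 and 388 of 13455 over all genes. A higher floor or threshold leaves fewer genes to call by construction, and the cause of the other moves was not tested. Signals at or below the receptor background of 70.2, such as those of Lef1 and Sp5, cannot show a difference.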

Other observations

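Of the other Wnt targets, 3 of 13 were higher and 3 lower on day 1 over day 0, beside 6.02% and 6.56% of all genes. The genes below were chosen after their values were seen. Nkd1, a feedback inhibitor that binds Dishevelled, read 145 on day 0, 66.5 on day 1 and 154 on day 2. On this probe set, the brightest of 4 measured, its signal was at least 2.18-fold lower on day 1. The day 1 signals of the others are not given here. Ccnd1, which encodes cyclin D1, read 1424, 310 and 356, and was 4.597-fold lower on day 1 and 3.995-fold lower on day 2. Over its 3 probe sets, the log2 ratios of day 2 over day 0 ran from -4.15 to -2.00. Myc read 1181, 724 and 368, 3.21-fold lower on day 2. Ascl2, a helix-loop-helix factor, read 13.8, 238 and 141 on an unspecific probe set. Over its 3 measured probe sets, the log2 ratios of day 2 over day 0 ran from 0.0 to 1.39. The receptor gene Ror1 read 16.9, 129 and 35.8 and, like Axin2, was highest on day 1, though it was above the receptor background on that array alone. This was the brightest of its 3 measured probe sets, and the day 1 signals of the others are not given here.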
